A study of Homo sapiens with 18 samples.

Results

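The D and E cyclins, CDK6 and the inhibitors of cyclin-dependent kinases (CDKs) were followed across the RNA-seq libraries of MDA-MB-231 cells, a mesenchymal-like triple negative breast cancer line. The 10 genes CCND1, CCND2, CCND3, CCNE1, CCNE2, CDK6, CDKN1A, CDKN1B, CDKN1C and CDKN2B were found by matching their symbols to the Ensembl identifiers of the 57448 rows of the count matrix. Of these genes, 9 reached the level required for testing, at least 1 CPM (counts scaled to library size) in at least 3 of the 18 libraries, and CDKN2B did not. The 6 groups of 3 libraries were parental cells with no modification (WT), lines KO1 and KO2 with GPS2 knocked out, cells carrying myristoylated AKT (myrAKT), and KO1 and KO2 cells given 10 µM of the allosteric AKT inhibitor MK2206 for 4 h (KO1+MK and KO2+MK). Each knockout line was a mixture of edited cells rather than the offspring of 1 cell, made by lentiviral CRISPR-Cas9 with its own set of sgRNAs against exons 2 and 6 of GPS2 and selected with puromycin. The myrAKT line was made by retroviral transduction of a form of AKT that is held at the membrane and stays active. The design has no parental cells given MK2206, and the sources used here describe no vehicle or empty-vector control, so a change from WT and the making of the line cannot be told apart. In RNA from bulk cells, a shift in the share of cells in a phase of the cell cycle and a shift in RNA per cell cannot be told apart either.

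D cyclins bind CDK4 and CDK6 in early G1 and, with them, phosphorylate the retinoblastoma protein, which releases E2F transcription factors. E cyclins then bind CDK2 and drive the entry into S phase. The CIP/KIP inhibitors p21 (CDKN1A), p27 (CDKN1B) and p57 (CDKN1C) bind cyclin-CDK complexes, mainly those of CDK2, whereas p15 (CDKN2B) belongs to the INK4 class that holds CDK4 and CDK6 away from D cyclins. AKT is known to keep FoxO factors out of the nucleus, and the genes of p21 and p27 are textbook FoxO targets, which is why this group of genes is of interest in cells with altered AKT signaling.

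The libraries held between 23419198 and 39319910 reads counted on genes. Libraries given MK2206 were the shallowest, with 23419198 to 29939536 reads against 35627965 to 39319910 in untreated knockout cells. Each of the 18 libraries was most similar to a library of its own group. The counts on GPS2 were not lower in the knockout lines, at 4.40 to 4.89 CPM in WT, 4.46 to 4.54 CPM in KO1 and 5.90 to 6.14 CPM in KO2, and counts over a whole gene do not show small edits in its exons. The authors report that they checked the loss of GPS2 by western blot and genomic PCR, which are not part of these data. AKT1 was at 218.3 to 242.3 CPM in myrAKT against 133.8 to 135.6 CPM in WT. The 6 genes listed as present in MDA-MB-231 cells (VIM, CD44, AXL, CAV1, EGFR and ZEB1) summed to between 3723 and 4814 CPM over all libraries, and 6 genes that should be low (ESR1, PGR, ERBB2, CDH1, EPCAM and GATA3) to between 91.35 and 111.5 CPM, most of it ERBB2. The leukocyte marker PTPRC had at most 5 counts in any library, whereas the endothelial marker PECAM1 was at 19.87 to 22.49 CPM in myrAKT and at 3.38 to 3.71 CPM in WT. The part of depth and of these markers in the results below was not tested.

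Most of the measured genes of this group differed between the lines and the parental cells. A gene was called changed at an adjusted p of at most 0.001, with no minimum fold change. Pooled comparisons took the libraries of both knockout lines as 1 group, with no term for the line. Against WT, the pooled knockout lines had 7 of 9 genes called, with CCND1, CCNE1 and CCNE2 higher and CCND2, CDKN1A, CDKN1B and CDKN1C lower, while 32.1% of all genes tested were called (15.5% higher and 16.6% lower). In KO1 alone 8 of 9 genes were called, 5 higher and 3 lower, beside 41.7% of all genes (20.5% higher and 21.3% lower). In KO2 alone 7 of 9 were called, 4 higher and 3 lower, beside 43.1% of all genes (20.8% higher and 22.2% lower). Cells with myrAKT also had 7 of 9 called, against 30.0% of all genes (12.7% higher and 17.3% lower), with CCND3, CCNE1, CCNE2 and CDKN1A higher and CCND2, CDKN1B and CDKN1C lower. MK2206 in knockout cells gave 3 of 9, with CDKN1A and CDKN1B higher and CCND1 lower, against 21.5% of all genes (12.8% higher and 8.75% lower). In KO1 alone the drug gave 3 of 9, 2 higher and 1 lower, beside 19.2% of all genes (10.9% higher and 8.26% lower). In KO2 alone it gave 6 of 9, 5 higher and 1 lower, beside 21.9% of all genes (13.1% higher and 8.78% lower). The count in KO2 was 2 without KO2 replicate 3 and 3 without KO2 replicate 1 or 2 or KO2+MK replicate 2 or 3. Of all genes, 15.9% were called in the first of these fits and 13.8% to 18.7% in the others. That of the pooled lines was 6 with the line as a covariate, a fit that called 36.3% of all genes. Treated knockout cells differed from WT in 6 of 9 genes, 4 higher and 2 lower, beside 32.0% of all genes (16.0% higher and 16.1% lower). The comparisons with WT share the 3 WT libraries, and those of the drug share the untreated knockout libraries with them.

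**Figure D1:**
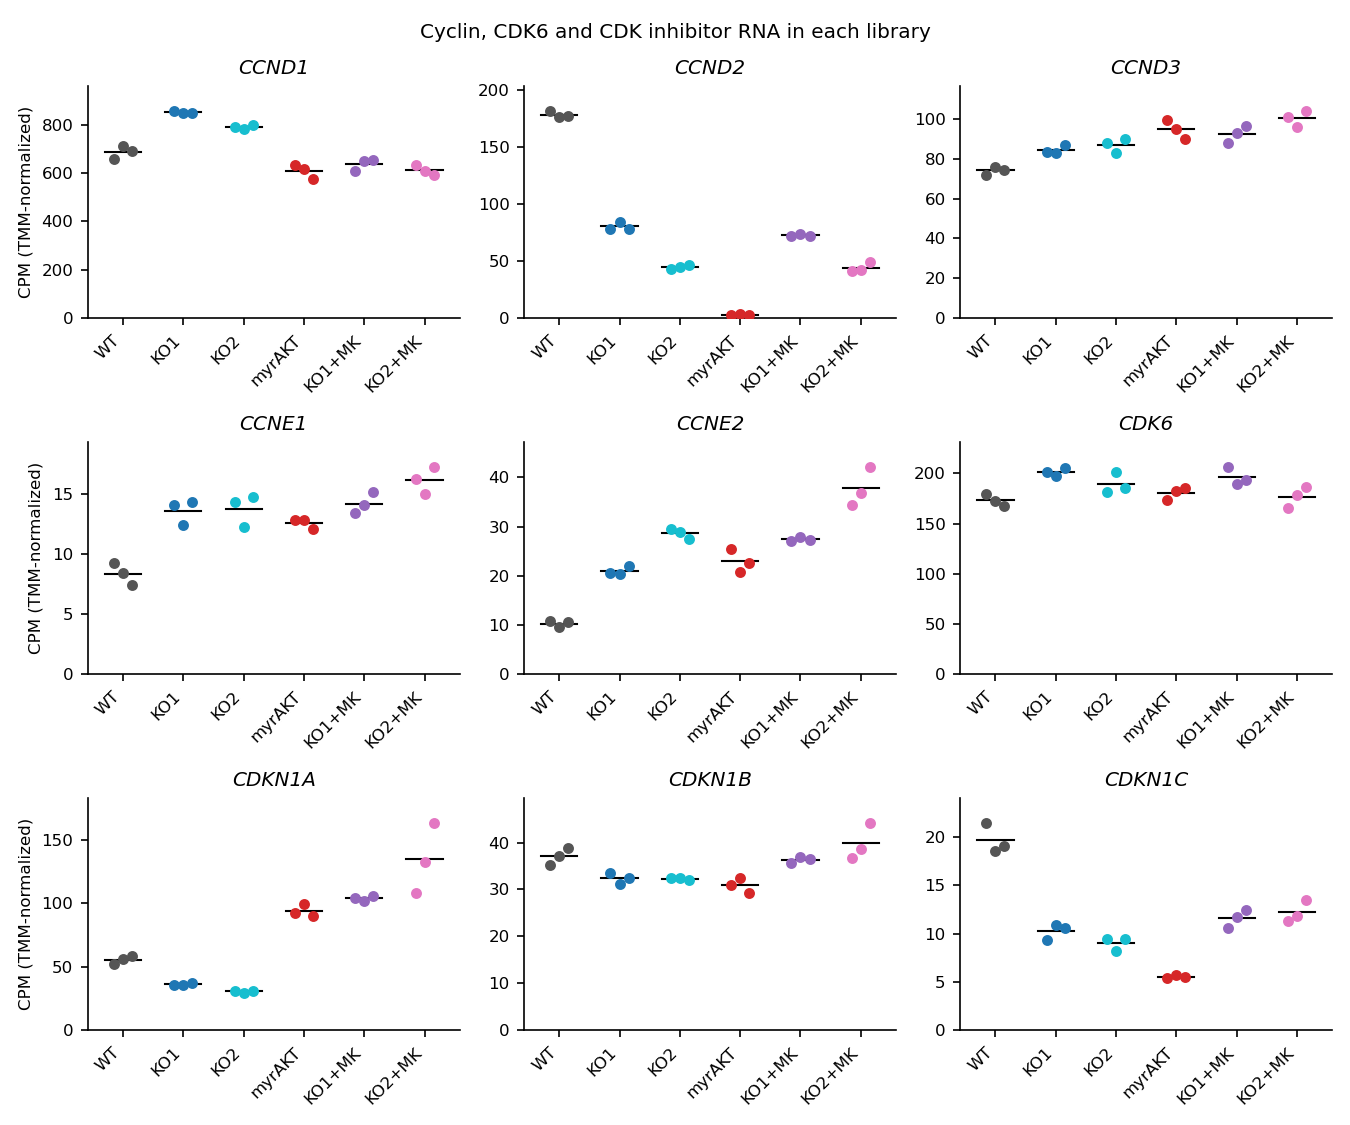
CPM (TMM-normalized) of 9 genes in each of the 18 libraries, by group, with a line at the mean of the 3 libraries and every axis starting at 0. CCND2 stands at 176.1 to 181.6 CPM in WT and at 2.33 to 3.34 CPM in myrAKT, while CDKN1A runs from 29.63 CPM in a KO2 library to 163.6 CPM in a library of KO2 cells given MK2206.

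CCND2 (ENSG00000118971, chromosome 12, 4269771 to 4305353, plus strand, hg38), the gene of cyclin D2, was the member with the widest range. Its level was 181.6, 176.1 and 176.7 CPM in WT, 77.93, 84.59 and 78.33 CPM in KO1, and 43.17, 44.51 and 46.22 CPM in KO2. In myrAKT it was 2.41, 3.34 and 2.33 CPM, which rested on 80 to 104 counts per library. These 4 groups did not overlap, and the order WT, KO1, KO2, myrAKT held for every library. CCND2 fell by 1.17 on the log2 scale in KO1 (standard error 0.0365, adjusted p = 2.31e-11) and by 2.00 in KO2 (standard error 0.036, adjusted p = 3.95e-13), which is 2.25-fold and 4.01-fold lower. The 2 knockout lines also differed from each other, with KO1 1.78-fold above KO2 (log2 difference 0.84, standard error 0.0417, adjusted p = 2.23e-10). This was 1 of 3 such differences among the 9 genes tested, where 12.6% of all genes differed between the lines (7.06% higher and 5.54% lower in KO1). In a direct comparison, myrAKT lay 4.53 log2 units below the pooled knockout lines (standard error 0.325, adjusted p = 4.16e-07), a difference also called for CCND1, CDKN1A and CDKN1C among the 9 genes, beside 35.8% of all genes (16.7% higher and 19.1% lower in myrAKT).

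MK2206 left CCND2 close to where it was in the knockout cells. Treated KO1 libraries held 71.78, 73.70 and 72.11 CPM and treated KO2 libraries 40.98, 42.51 and 48.91 CPM. The log2 change with the drug was −0.12 in KO1 (adjusted p = 0.0234) and 0.00 in KO2 (95% interval −0.13 to 0.13, adjusted p = 0.977), and neither was called. Treated knockout cells lay 1.62 log2 units below WT (standard error 0.173, adjusted p = 9.34e-06). Exons of CCND2 share 999 bases with ENSG00000285901 on the same strand, a gene not analysed here.

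CCND1 (ENSG00000110092, chromosome 11, 69641156 to 69654474, plus strand), the gene of cyclin D1, moved much less and in other directions. The WT libraries held 658.4, 712.3 and 688.7 CPM, those of KO1 856.4, 848.9 and 849.4 CPM, and those of KO2 791.0, 779.6 and 797.8 CPM. In myrAKT the level was 632.1, 617.3 and 576.0 CPM. Both knockout lines stood above WT in every library and myrAKT below it, with no overlap. The log2 fold change was 0.29 in KO1 (standard error 0.0339, adjusted p = 2.54e-06) and 0.19 in KO2 (standard error 0.0391, adjusted p = 0.000635). In myrAKT it was −0.18 (standard error 0.0504, adjusted p = 0.00754), which was not called by edgeR but was by DESeq2 (−0.18, adjusted p = 0.000426). Against the pooled knockout lines CCND1 was lower in myrAKT by 0.42 log2 units (standard error 0.0452, adjusted p = 9.65e-06). The rise in KO2 was not called without WT replicate 1 or 3 or without any 1 of the KO2 libraries, with adjusted p between 0.00157 and 0.00495. That of the pooled lines (0.24, adjusted p = 0.000605) was lost without WT replicate 1 or 3, KO1 replicate 2 or 3 or KO2 replicate 3, with adjusted p between 0.00102 and 0.00285.

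With MK2206, CCND1 was lower in both lines. Treated KO1 libraries held 607.7, 648.3 and 652.3 CPM and treated KO2 libraries 633.3, 607.2 and 593.4 CPM, all below the 6 untreated knockout libraries and below the 3 WT libraries. CCND1 fell by 0.40 on the log2 scale in KO1 (standard error 0.0346, adjusted p = 1.56e-06) and by 0.35 in KO2 (standard error 0.0355, adjusted p = 1.75e-06). The difference of the treated cells from WT (−0.15, adjusted p = 0.0119) was not called. On the opposite strand, exons of LTO1 share 497 bases with CCND1, and LTO1 had at most 1080 counts in a library where CCND1 never had fewer than 14597.

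CCND3 (ENSG00000112576, chromosome 6, 41934934 to 42050357, minus strand), the gene of cyclin D3, was lowest in WT. Its level was 71.99, 75.96 and 74.49 CPM in WT, 83.34, 82.78 and 87.13 CPM in KO1, 88.06, 82.94 and 89.98 CPM in KO2, and 99.34, 95.08 and 89.92 CPM in myrAKT. Every other library lay above the WT libraries, and KO1 and KO2 overlapped. The log2 fold change was 0.17 in KO1 (adjusted p = 0.000926), 0.22 in KO2 (adjusted p = 0.000193) and 0.35 in myrAKT (standard error 0.0452, adjusted p = 1.6e-05), while for the pooled lines it was 0.19 and missed the threshold (adjusted p = 0.00133). The calls in the knockout lines lay near the threshold. In KO1 the call was lost without any 1 of the KO1 libraries or without WT replicate 1 or 3 (adjusted p 0.00145 to 0.00725). The log2 fold change in these fits was 0.145 to 0.188. In KO2 the call was lost without KO2 replicate 1 or 3 or WT replicate 3 (adjusted p 0.00132 to 0.00264), with log2 fold changes of 0.185 to 0.230. MK2206 raised CCND3 by 0.23 log2 units in KO2 (adjusted p = 0.000403), from the values above to 101.0, 95.97 and 104.1 CPM. This call was lost without any 1 of the untreated KO2 libraries or KO2+MK replicate 3, with adjusted p between 0.00103 and 0.00268. The change of 0.16 in KO1, where treated libraries held 87.97, 92.99 and 96.51 CPM, was not called (adjusted p = 0.00471).

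CDK6 (ENSG00000105810, chromosome 7, 92604921 to 92836573, minus strand), a kinase partner of the D cyclins, varied least. The lowest group mean was that of WT (173.2 ± 5.78 CPM, SD, n = 3) and the highest that of KO1 (201.3 ± 4.32 CPM, SD, n = 3). Ordered by mean, every group overlapped with the next, and 1 of the 5 comparisons with WT and of the drug within each line was called. This was KO1 against WT (log2 fold change 0.20, standard error 0.033, adjusted p = 8.77e-05), which just missed the threshold without KO1 replicate 3 (0.18, adjusted p = 0.00101). In KO2 the value was 0.13 (adjusted p = 0.0213) and in myrAKT 0.05 (95% interval −0.04 to 0.15, adjusted p = 0.338). With MK2206 CDK6 changed by −0.01 in KO1 (95% interval −0.10 to 0.08) and by −0.08 in KO2 (95% interval −0.19 to 0.02).

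**Figure D2:**
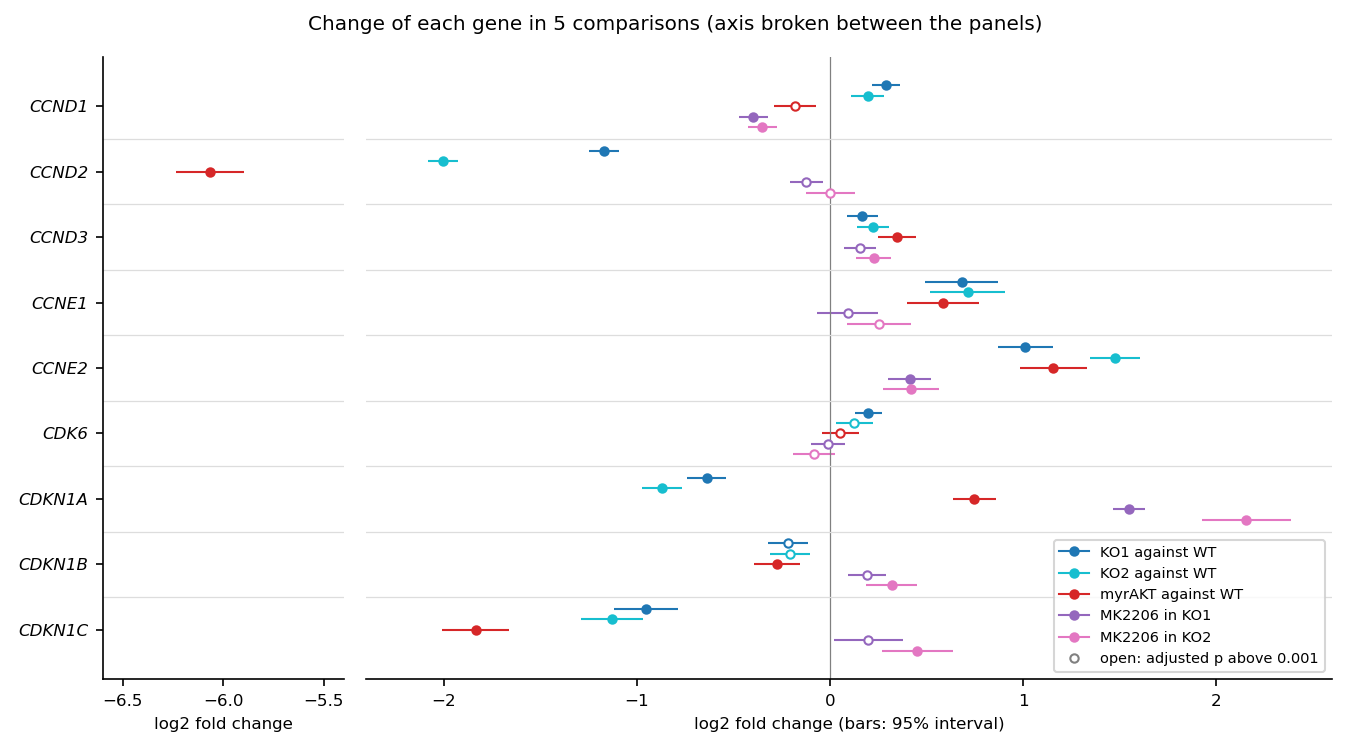
Log2 fold change of 9 genes in 5 comparisons, with 95% intervals as bars, filled points for an adjusted p of at most 0.001 and open points for the others. The axis is broken between the panels so that CCND2 in myrAKT (−6.07) can be shown beside the much smaller other changes, and CDKN1A is the gene whose knockout and myrAKT points lie on opposite sides of 0 with both called.

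To compare levels between genes, CPM was divided by the length of the canonical transcript in kilobases (CPM per kb). The D cyclins summed to 226.0 ± 6.92 CPM per kb (SD, n = 3) in WT, to 255.0 ± 0.680 in KO1, 236.1 ± 4.01 in KO2, 190.8 ± 9.21 in myrAKT, 206.9 ± 7.93 in KO1+MK and 200.6 ± 4.42 in KO2+MK. CCND1 held 71.7% of this sum in WT and between 71.9% and 78.9% in the other groups. The share of CCND2 was 12.2% in WT, 4.85% in KO1, 2.91% in KO2, 0.217% in myrAKT, 5.40% in KO1+MK and 3.39% in KO2+MK. That of CCND3 was 16.2% in WT, 16.3% in KO1, 18.2% in KO2, 24.5% in myrAKT, 22.1% in KO1+MK and 24.7% in KO2+MK. With the length of all exons in place of the canonical transcript, the share of CCND3 was 7.18% in WT and 7.20% to 11.5% in the other groups. Among the kinases, CDK6 stood at 14.85 to 17.26 CPM per kb over the groups, below CDK4 at 36.10 to 52.78 CPM per kb in every group. With the length of all exons the gap was smaller, at 14.15 to 16.45 CPM per kb for CDK6 and 21.76 to 31.82 for CDK4.

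CCNE1 and CCNE2, the genes of cyclins E1 and E2, were higher than in WT in every other group. CCNE1 (ENSG00000105173) spans 29811991 to 29824312 on the plus strand of chromosome 19 (hg38). Its promoter is shown because CCNE1 is a textbook target of E2F and was called in both knockout lines and in myrAKT. The RefSeq promoter table on GRCh38.p14 held 6 of the 10 genes and no entry for CCND1, CCND2, CCNE2 or CDKN1C. The 250 bases before the start of CCNE1, chr19:29811741-29811990 on the plus strand, are printed with matches of GGGCGG, the GC box, in capitals on either strand:
CCNE1: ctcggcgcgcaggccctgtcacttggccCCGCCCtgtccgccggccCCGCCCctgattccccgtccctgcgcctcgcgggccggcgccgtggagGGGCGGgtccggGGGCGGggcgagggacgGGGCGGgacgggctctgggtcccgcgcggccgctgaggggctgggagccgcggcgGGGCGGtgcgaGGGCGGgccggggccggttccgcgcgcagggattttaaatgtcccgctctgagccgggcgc
The window is 81.2% G and C and holds 7 matches of GGGCGG or its reverse complement CCGCCC, a motif found in 42.6% of the 35116 promoter windows of the same length in the table. E2F-type motifs were also searched on both strands. The motif TTCCCGC is present in 5.52% of all windows, whereas TTGGCGC was found in 2.56% of them. The form TTCGCGC occurs in 1.85% and a further form written TTGCCGC in 1.87% of the windows. None of them had a match in these 250 bases, which says only that those letters are not in this window.

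CCNE1 was at 9.25, 8.43 and 7.40 CPM in WT, 14.05, 12.39 and 14.29 CPM in KO1, 14.32, 12.25 and 14.72 CPM in KO2, and 12.86, 12.80 and 12.09 CPM in myrAKT. The WT libraries were the lowest 3 of all, and KO1, KO2 and myrAKT overlapped. The log2 fold change was 0.68 in KO1 (standard error 0.0888, adjusted p = 8.24e-06), 0.71 in KO2 (standard error 0.0897, adjusted p = 1.11e-05) and 0.58 in myrAKT (standard error 0.0874, adjusted p = 5.86e-05). No difference was called between KO1 and KO2 (−0.03, 95% interval −0.19 to 0.13) or between myrAKT and the pooled knockout lines (−0.10, 95% interval −0.26 to 0.05). With MK2206 the level was 13.41, 14.06 and 15.12 CPM in KO1 and 16.25, 14.99 and 17.25 CPM in KO2. These changes of 0.09 (adjusted p = 0.335) and 0.25 (adjusted p = 0.0145) were not called, and treated cells stayed 0.86 log2 units above WT (standard error 0.095, adjusted p = 1.21e-05).

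CCNE2 (ENSG00000175305, chromosome 8, 94879770 to 94896678, minus strand) showed the larger rise. Its level was 10.74, 9.56 and 10.50 CPM in WT, 20.56, 20.32 and 21.98 CPM in KO1, 29.54, 28.88 and 27.54 CPM in KO2, and 25.42, 20.85 and 22.62 CPM in myrAKT. Of these groups only KO1 and myrAKT overlapped. CCNE2 was 2.02-fold higher than WT in KO1 (log2 fold change 1.01, standard error 0.0663, adjusted p = 7.86e-09), 2.78-fold in KO2 (1.47, standard error 0.0601, adjusted p = 4.57e-10) and 2.23-fold in myrAKT (1.16, standard error 0.0806, adjusted p = 2.83e-08). KO1 was lower than KO2 by 0.46 log2 units (standard error 0.0498, adjusted p = 1.98e-06).

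MK2206 raised CCNE2 further. Treated libraries held 27.10, 27.82 and 27.36 CPM in KO1 and 34.48, 36.85 and 42.15 CPM in KO2, above all untreated libraries of the same line. The log2 change was 0.41 in KO1 (standard error 0.0508, adjusted p = 2.85e-05) and 0.42 in KO2 (standard error 0.0668, adjusted p = 0.000121). The call in KO2 was lost without KO2 replicate 3 (adjusted p = 0.00113) or KO2+MK replicate 2 (0.00104). With the 2 lines pooled the same change of 0.42 was not called (adjusted p = 0.0182), but it was called with the line as a covariate (adjusted p = 2.06e-07), and the untreated lines differed by 0.46 log2 units. The drug changed CCNE2 by amounts that differed between lines by 0.01 log2 units (95% interval −0.18 to 0.20).

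CCNE2 shares 1629 of its exon bases with INTS8, an Integrator subunit gene on the opposite strand, and the strand setting of the counting is not given in the sources used here. INTS8 was at 42.47 CPM in WT, 35.09 in KO1, 43.66 in KO2, 57.20 in myrAKT, 43.58 in KO1+MK and 51.78 in KO2+MK. INTS8 was thus lower in KO1 than in WT, overlapped with WT in KO2 and was highest in myrAKT, while CCNE2 was above WT in each of these lines. With MK2206 the mean of INTS8 was higher in both lines, as was that of CCNE2. The part of INTS8 in the CCNE2 values was not tested. Per length, the E cyclins summed to 8.12 ± 0.553 CPM per kb (SD, n = 3) in WT, 14.79 ± 0.802 in KO1, 17.76 ± 0.659 in KO2, 15.03 ± 0.930 in myrAKT, 17.52 ± 0.489 in KO1+MK and 22.42 ± 1.88 in KO2+MK. The share of CCNE2 in this sum was 47.4% in WT and 53.0% to 63.1% in the other groups. With the length of all exons it was 40.8% in WT, 46.4% in KO1, 53.9% in KO2 and 50.5% in myrAKT. In treated cells it was then 52.0% in KO1 and 56.7% in KO2. Which E cyclin held the larger share in KO1 thus turned with the length used.

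**Figure D3:**
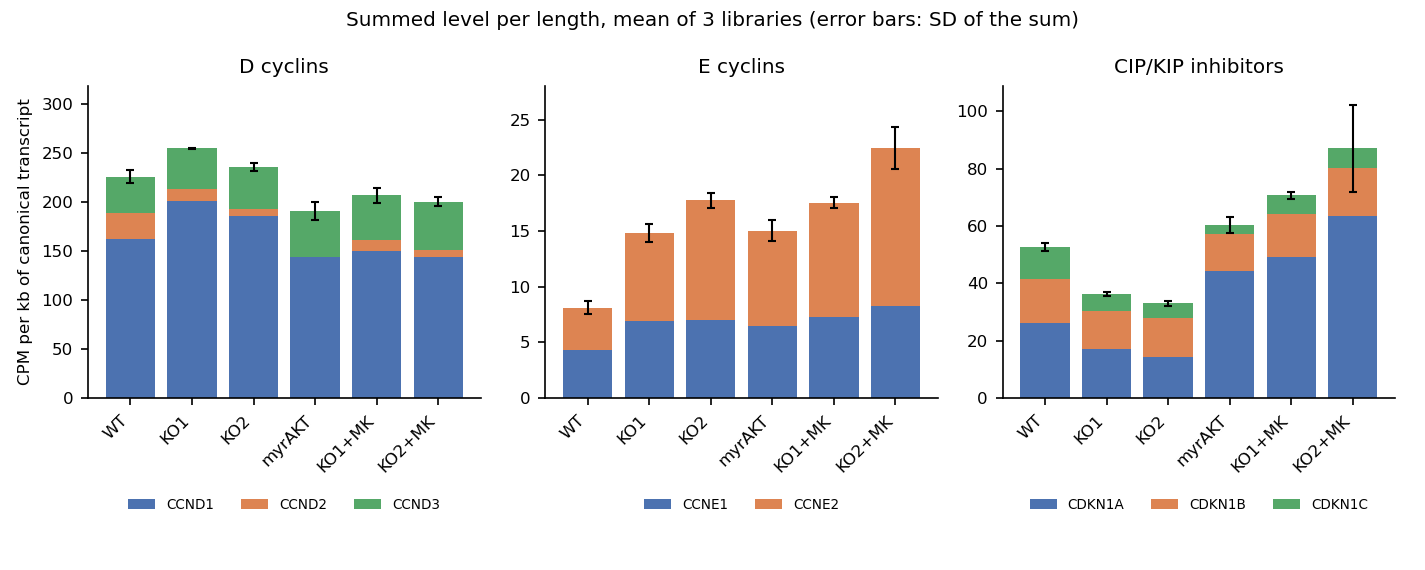
Stacked mean levels (CPM per kb of canonical transcript) of the D cyclins, the E cyclins and the CIP/KIP inhibitors in the 6 groups, with error bars for the SD of the sum over 3 libraries. The CIP/KIP sum stands at 52.78 CPM per kb in WT, 36.34 in KO1 and 32.99 in KO2, and at 60.31 in myrAKT, 70.77 in KO1+MK and 87.11 in KO2+MK.

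The CIP/KIP inhibitors CDKN1A, CDKN1B and CDKN1C were all called lower in the pooled knockout lines (16.6% of all genes were) and all called higher with MK2206 in KO2 (13.1%), while in myrAKT CDKN1A was called higher (12.7%) and the other two lower (17.3%). The calls of CDKN1B in these 3 comparisons, and that of CDKN1C with MK2206 in KO2, were lost on leaving out most single libraries. CDKN1A (ENSG00000124762, chromosome 6, 36676460 to 36687337, plus strand), the gene of p21, went down in the knockout lines and up in myrAKT and with MK2206. Its level was 52.56, 55.99 and 58.39 CPM in WT, 35.86, 35.30 and 37.46 CPM in KO1, and 31.14, 29.63 and 31.14 CPM in KO2. In myrAKT it was 92.39, 99.22 and 90.36 CPM. No 2 of these groups overlapped. CDKN1A fell by 0.64 on the log2 scale in KO1 (standard error 0.047, adjusted p = 2.33e-08) and by 0.87 in KO2 (standard error 0.0483, adjusted p = 5.92e-09), and it rose by 0.75 in myrAKT (standard error 0.0514, adjusted p = 2.47e-08). The direct comparison of myrAKT with the pooled knockout lines gave 1.51 log2 units (standard error 0.0675, adjusted p = 1.63e-08), or 2.84-fold. Between the lines, KO1 was 0.23 log2 units above KO2 (adjusted p = 0.000552), a call that was lost without KO1 replicate 1 or 3 or without any 1 of the KO2 libraries, with adjusted p between 0.0013 and 0.00405.

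The strongest response to MK2206 in this group of genes was that of CDKN1A. Treated KO1 libraries held 104.2, 102.3 and 105.8 CPM and treated KO2 libraries 108.3, 132.6 and 163.6 CPM, so that all 6 lay above every library of the other 4 groups. The rise was 1.55 log2 units or 2.92-fold in KO1 (standard error 0.039, adjusted p = 8.03e-11) and 2.16 log2 units or 4.46-fold in KO2 (standard error 0.107, adjusted p = 2.71e-09). Treated KO2 libraries spread over 108.3 to 163.6 CPM, and KO2+MK replicate 3 was the highest of its group also for CCND2, CCND3, CCNE1, CCNE2, CDK6, CDKN1B and CDKN1C. The rise was larger in KO2 than in KO1 by 0.61 log2 units (standard error 0.137), and this difference was not called (adjusted p = 0.0906). It was called without KO2+MK replicate 1 (0.76, adjusted p = 0.000585) and with no filter beyond 1 count (0.63, adjusted p = 1.33e-10). For the 9 genes 0 such differences between the lines were called, beside 0.0128% of all genes. DESeq2 also called 0, beside 0.141% of all genes. In edgeR CDKN1A alone of the 9 had an unadjusted p under 0.05, where 1251 of the 15587 genes tested had one of at most 0.05. Treated knockout cells stood 2.14-fold above WT (1.10 log2 units, standard error 0.143, adjusted p = 4.15e-05). CDKN1A shares 146 exon bases with DINOL on the opposite strand, a gene not analysed here.

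CDKN1B (ENSG00000111276, chromosome 12, 12685498 to 12722369, plus strand), the gene of p27, changed by small amounts. Its promoter is shown because p27 is a textbook FoxO target and its RNA rose with the AKT inhibitor. The 250 bases before the RefSeq start, chr12:12717118-12717367 on the plus strand of GRCh38.p14, carry in capitals 1 match of GGGCGG, 66 to 71 bases before the start, and 1 of TGTTTA, the reverse complement of the FoxO core motif TAAACA, 27 to 32 bases before it:
CDKN1B: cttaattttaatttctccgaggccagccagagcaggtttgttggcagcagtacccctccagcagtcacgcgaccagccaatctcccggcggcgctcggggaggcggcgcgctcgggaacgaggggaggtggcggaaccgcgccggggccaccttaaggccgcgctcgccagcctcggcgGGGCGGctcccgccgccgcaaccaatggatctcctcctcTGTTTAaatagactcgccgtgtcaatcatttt
TAAACA in either orientation was found in 11.0% of the 35116 windows. The longer form GTAAACA, found in 2.98% of windows, had no match here, nor did the 4 E2F-type motifs. Binding was not measured, and a match describes the letters only. No other of the 6 genes with an entry had a match of TAAACA in its windows. This includes CDKN1A, the gene with the strongest rise with MK2206, whose window overlaps an exon and is not printed.

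CDKN1B was at 35.25, 37.22 and 38.77 CPM in WT, 33.54, 31.19 and 32.34 CPM in KO1, 32.49, 32.42 and 32.07 CPM in KO2, and 30.90, 32.40 and 29.23 CPM in myrAKT. All libraries of the 3 modified lines lay below WT and overlapped with each other. The log2 fold change was −0.22 for the pooled knockout lines (standard error 0.041, adjusted p = 0.000779) and −0.27 in myrAKT (standard error 0.0565, adjusted p = 0.000916), both called. In KO1 (−0.22, adjusted p = 0.00126) and KO2 (−0.21, adjusted p = 0.00185) alone it was not called. The pooled call was lost on leaving out WT replicate 2 or 3 or any 1 of the 6 knockout libraries, with adjusted p between 0.00165 and 0.0156. The call in myrAKT was lost without WT replicate 2 or 3 or myrAKT replicate 1 or 3, with adjusted p between 0.00272 and 0.00904.

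With MK2206, CDKN1B was at 35.64, 36.83 and 36.43 CPM in KO1 and at 36.74, 38.62 and 44.19 CPM in KO2, above all untreated knockout libraries. The pooled log2 change was 0.26 (standard error 0.0494, adjusted p = 0.000668), with 0.32 in KO2 (adjusted p = 0.000615) and 0.19 in KO1 (adjusted p = 0.00414, not called). Treated cells and WT overlapped, with a log2 difference of 0.03 (95% interval −0.12 to 0.18). The pooled call was lost without any 1 of the 6 untreated knockout libraries, KO1+MK replicate 1 or 2, or KO2+MK replicate 1 or 2, with adjusted p between 0.00107 and 0.00312. That in KO2 was lost without any 1 of the untreated KO2 libraries or KO2+MK replicate 2 or 3, with adjusted p between 0.00176 and 0.00398.

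CDKN1C (ENSG00000129757, chromosome 11, 2883213 to 2885775, minus strand), the gene of p57 and an imprinted gene, was lower in every group than in WT. Its level was 21.48, 18.57 and 19.06 CPM in WT, 9.36, 10.90 and 10.63 CPM in KO1, 9.48, 8.20 and 9.49 CPM in KO2, and 5.42, 5.71 and 5.50 CPM in myrAKT. KO1 and KO2 overlapped, and myrAKT lay below both. CDKN1C fell by 0.95 on the log2 scale in KO1 (standard error 0.0771, adjusted p = 6.19e-08), by 1.13 in KO2 (standard error 0.0745, adjusted p = 2.69e-08) and by 1.83 in myrAKT (standard error 0.0814, adjusted p = 3.04e-10). In myrAKT it was lower than in the pooled knockout lines by 0.79 log2 units (standard error 0.0915, adjusted p = 1.65e-05). The drug brought CDKN1C to 10.62, 11.68 and 12.48 CPM in KO1 and to 11.30, 11.85 and 13.50 CPM in KO2. The rise of 0.45 log2 units in KO2 was called (standard error 0.0864, adjusted p = 0.000567) and the change of 0.20 in KO1 was not (adjusted p = 0.0665). The call in KO2 was lost without any 1 of the untreated KO2 libraries or KO2+MK replicate 2 or 3, with adjusted p between 0.00158 and 0.00318. Treated cells stayed 0.73 log2 units below WT (standard error 0.0768, adjusted p = 8.06e-06).

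Per length, the 3 CIP/KIP genes summed to 52.78 ± 1.47 CPM per kb (SD, n = 3) in WT, 36.34 ± 0.692 in KO1 and 32.99 ± 0.795 in KO2. The sum was 60.31 ± 2.90 in myrAKT, 70.77 ± 1.17 in KO1+MK and 87.11 ± 15.3 in KO2+MK. With the length of all exons in place of the canonical transcript these sums were lower, at 30.53 in WT, 19.73 in KO1, 17.37 in KO2, 36.94 in myrAKT, 43.34 in KO1+MK and 54.24 in KO2+MK, in the same order. By canonical length, CDKN1A held 49.8% of the sum in WT and 43.9% to 47.1% in the knockout lines, but 73.6% in myrAKT and 69.5% to 72.9% in treated cells. With the length of all exons the share of CDKN1A was 60.8% in WT, 61.2% in KO1 and 58.9% in KO2, so its direction in KO1 turned with the length used, and it was 84.9% in myrAKT and 80.2% to 82.8% in treated cells. By canonical length, the share of CDKN1C was 21.1% in WT and 5.19% in myrAKT. In treated cells CDKN1C held 9.23% in KO1 and 7.99% in KO2.

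CDKN2B (ENSG00000147883, chromosome 9, 22002903 to 22009305, minus strand), the gene of p15, had 0 counts in all 18 libraries, which allows a level of up to 0.0774 to 0.125 CPM per library (3 counts). The other genes listed from this stretch of chromosome 9, at band 9p21, were also at 0 counts (CDKN2B-AS1, DMRTA1, KLHL9 and ELAVL2) or at 2 counts in a single KO1 library and 0 elsewhere (CDKN2A and MTAP). CDKN2A encodes the INK4 inhibitor p16 and p14ARF. DNA was not measured. These limits cover counting error only.

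The other genes of the G1/S machinery were described from a list of 41 genes, of which 40 were tested and CDKN2A was not. In the pooled knockout lines 19 of 40 were called higher and 4 lower, where 15.5% and 16.6% of all genes were, and their median log2 fold change was 0.24 beside −0.00 over all genes. CDK4, the kinase that shares the D cyclins with CDK6, rose by 0.50 (standard error 0.0405, adjusted p = 1.43e-06). E2F1 rose by 0.41 and SKP2, the ubiquitin ligase subunit that recognizes p27, by 0.69 (adjusted p = 1.66e-06 and 1.94e-06). The largest rise was that of the CDK-activating phosphatase CDC25A (1.15, adjusted p = 1.2e-07) and the largest fall that of the pocket protein gene RBL2 (−0.70, adjusted p = 3.58e-06). Among the INK4 genes other than CDKN2A and CDKN2B, CDKN2C rose by 0.52 (adjusted p = 0.000512), and CDKN2D was at −0.32 (adjusted p = 0.00129), which was not called. RB1 (0.24, adjusted p = 0.00209) and CDK2 (0.12, adjusted p = 0.0351) were not called either.

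In myrAKT 12 of the 40 genes were called higher and 6 lower, beside 12.7% and 17.3% of all genes, with a median of 0.12. SKP2 rose by 0.53 (adjusted p = 9.39e-07), E2F1 by 0.37 (adjusted p = 0.000106) and CDK2 by 0.28 (adjusted p = 0.000465), while CDK4 was at 0.17 (adjusted p = 0.0111) and not called. The largest rise was that of E2F2 (0.91) and the largest fall that of CCNH (−0.83), the cyclin partner of CDK7. RBL2 rose here by 0.31 (adjusted p = 0.00069), in the direction opposite to the knockout lines. CDKN2D fell by 0.38 (adjusted p = 0.000616), and RB1 (0.17) and CDKN2C (0.33) were not called.

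With MK2206 in the pooled knockout lines, 7 of the 40 genes were called higher and 5 lower, beside 12.8% and 8.75% of all genes, with a median of −0.01. CDK4 fell by 0.28 log2 units (standard error 0.0379, adjusted p = 3.69e-05), as CCND1 did. The largest rise was that of LIN52 (0.54), a subunit of the DREAM complex, and the largest fall that of E2F5 (−0.55). No call was made for SKP2 (−0.03), E2F1 (0.03), CDK2 (−0.00), RB1 (0.01), CDKN2C (−0.09) or CDKN2D (0.21).

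**Figure D4:**
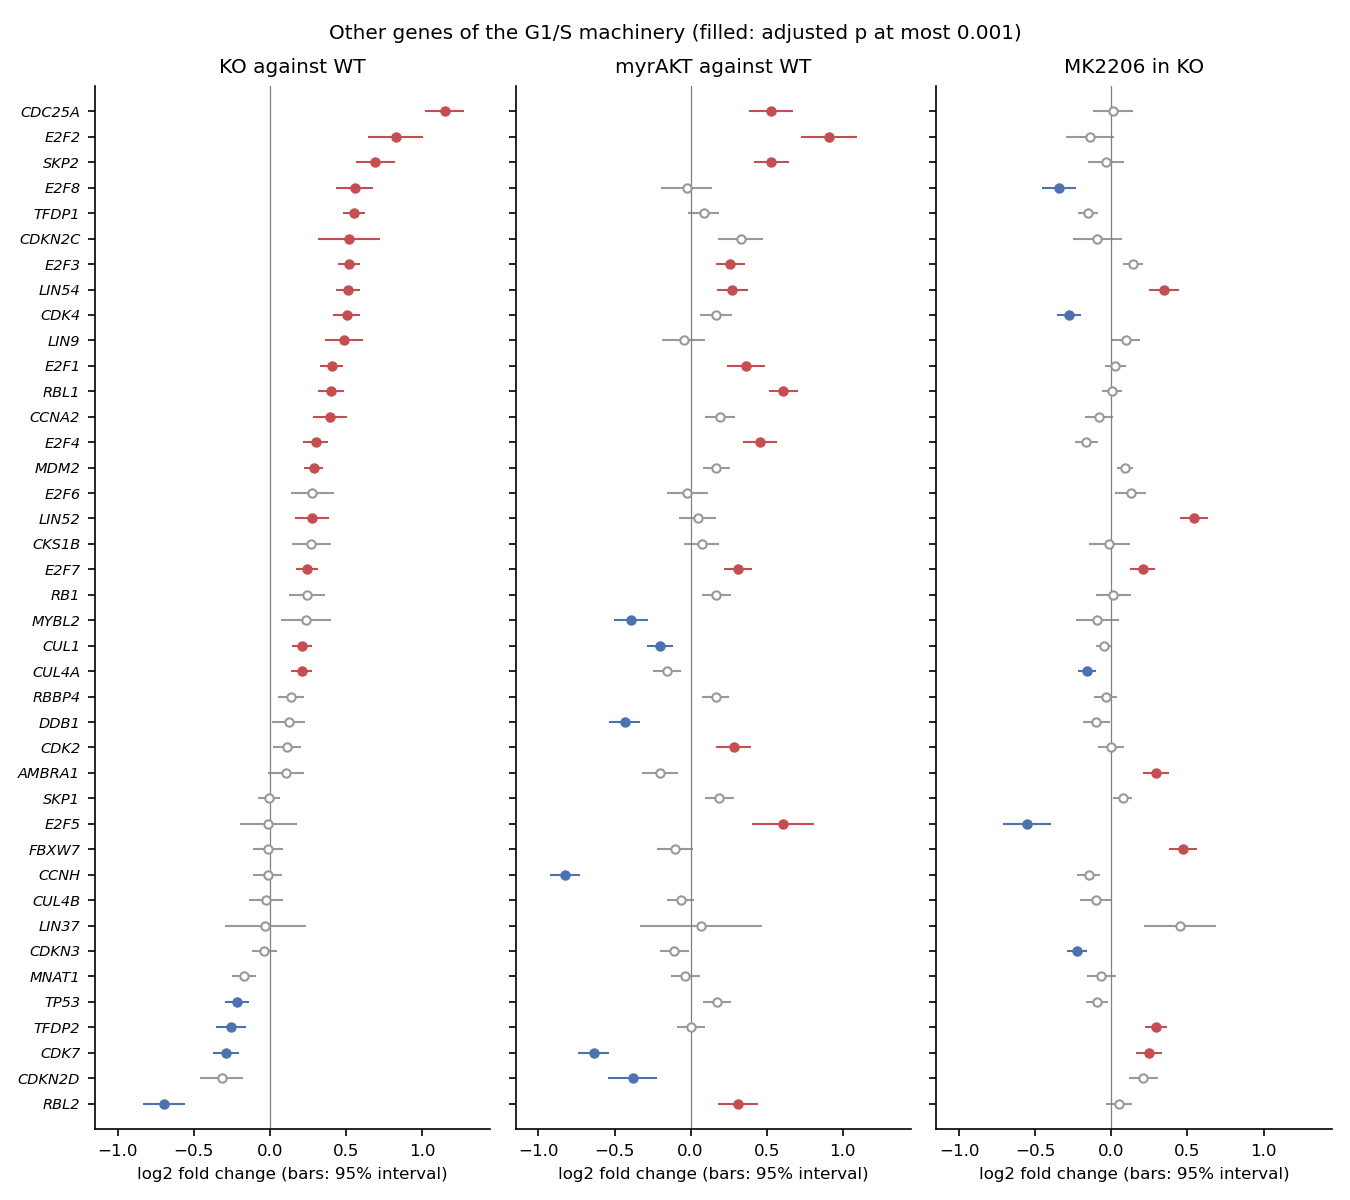
Log2 fold change of 40 other G1/S genes in the pooled knockout lines, in myrAKT and with MK2206 in the pooled knockout lines, with 95% intervals as bars and filled points for an adjusted p of at most 0.001. Of the filled points, 19 of 23 lie above 0 in the knockout panel, 12 of 18 in the myrAKT panel and 7 of 12 in the MK2206 panel.

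The genes whose pattern over the 18 libraries was most like that of each member were found by Pearson's r of log2 CPM among 3358 genes whose group means span at least 1 log2 unit. The libraries fall into 6 groups, so these values describe group means more than single libraries. CCND2 was followed most closely by DOCK2 (r = 0.997), LCP1 (0.994) and IGF2 (0.994), and CDKN1A by ARRDC2 (0.985), OTUD1 (0.982) and ULK1 (0.972). The nearest genes of CCNE2 were CENPN (0.979), CAPN7 (0.976) and TICRR (0.973), those of CCNE1 SMG9 (0.962), PSMC3IP (0.943) and TRIM26 (0.937), and those of CCND1 WDR43 (0.977), F3 (0.971) and PLK2 (0.965). For CDKN1C they were LIPH (0.972), ISYNA1 (0.950) and ARRDC4 (0.949), and for CCND3 EEIG1 (0.947), TXNL4B (0.944) and SGK1 (0.942). CDKN1B had DLX3 (0.918), PELI1 (0.906) and CRY2 (0.880). No gene in this search came as close to CDK6, whose nearest were ENSG00000273760 (0.812), MAGEA6 (0.759) and ENSG00000261428 (0.756). CDK6 does not itself span 1 log2 unit, nor do CCND1, CCND3, CCNE1 and CDKN1B. Genes that vary as little as CDK6 were left out of the search, so it cannot say whether any of them follows CDK6 closely.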

How the data were processed

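RNA from 18 libraries in 6 groups of 3 was analysed. The deposited unit is the count: the authors depleted ribosomal RNA (Kapa RNA HyperPrep with RiboErase), sequenced in 2 paired-end runs, trimmed reads with TrimGalore, aligned them to hg38 with HISAT2 and counted them on Ensembl genes with featureCounts, without normalization. Versions, annotation, strand setting and how reads on overlapping genes were handled are not given in the sources used here, so genes with overlapping exons can share reads. Depth ranged from 23419198 to 39319910 counted reads. The limits given for 0 counts cover counting error only, whereas the 95% intervals and standard errors come from the fits and include the spread between libraries. Groups were taken from the sample labels. Nothing says that replicates came from separate cultures, so p-values measure the spread between these samples, which may be technical. The mean chi-square per gene between replicates was 2.14 to 9.78, above counting noise.

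Groups were compared with edgeR 4.0.16 in R 4.3.3 (TMM normalization, quasi-likelihood test) over the 15587 genes that reached 1 CPM in 3 or more libraries, with Benjamini-Hochberg adjustment over all of them. A call required an adjusted p of at most 0.001. Only the groups compared entered a fit. Fits of the pooled lines had no term for the line unless stated, so their standard errors mix the difference between the lines with the spread between replicates. The pooled libraries come from 2 lines and are not independent knockouts. The comparison of myrAKT with the knockout lines was added after seeing the data. CPM used TMM-normalized library sizes, and log2 CPM a prior count of 2. Positions and lengths came from GENCODE release 44. Promoter windows came from RefSeq (GRCh38.p14). The members and lists were chosen with earlier results of these data known. Besides the 10 members, the rule names 8 G1/S genes (CDK4, CDK2, RB1, CDKN2A, CDKN2C, CDKN2D, SKP2 and E2F1), the G1/S gene with the largest called rise and fall in each main comparison, the genes of band 9p21, the 3 genes most like each member in pattern, and GPS2 and AKT1. The motifs and the promoters printed were chosen with the values seen. RBL2 in myrAKT was also named after its value was seen.

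Alternatives were DESeq2 1.42.0, other normalizations, filters and thresholds, all 18 libraries in 1 fit, the replicate number as a block, the line as a covariate, and leaving out each library. Same-numbered replicates did not deviate together (mean r −0.0291 over 45 pairs, 12 above 0.1), so the numbers were not taken to pair samples.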

Additional observations from a re-analysis of the deposited data

Results flagged for a closer look

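Levels differed between the 2 knockout lines for 3 of the 9 genes tested, by a direct test of KO1 against KO2 (12.6% of all genes differed). CCND2 was higher in KO1 by 0.84 log2 units, at 77.93 to 84.59 CPM against 43.17 to 46.22 CPM. CCNE2 differed by −0.46, at 20.32 to 21.98 CPM in KO1 and 27.54 to 29.54 CPM in KO2. CDKN1A differed by 0.23, at 35.30 to 37.46 CPM against 29.63 to 31.14 CPM. This call was lost without KO1 replicate 1 or 3 or without any 1 of the KO2 libraries (adjusted p = 0.0013 to 0.00405), and with all 18 libraries in 1 fit (0.0675).

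Levels in myrAKT differed from those in the pooled knockout lines for 4 of the 9 genes (35.8% of all genes differed). The differences in log2 units, myrAKT minus knockout, were −0.42 for CCND1, −4.53 for CCND2, 1.51 for CDKN1A and −0.79 for CDKN1C. For CDKN1A the changes against WT were in opposite directions and both were called. Groups of 3 libraries are too small for a search for single outlying libraries.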

How the results depend on the processing

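Over all alternatives, 1601 values of single genes kept their direction and their side of the threshold, 108 lost the call, 47 gained one and 26 changed sign, and every value that changed sign had not been called. With a minimum fold change of 1.5, 5 of the 9 genes stayed called in KO1 against WT (13.9% of all genes), 1 in KO1 against KO2 (2.62%), 4 in myrAKT (13.8%), and 1 each for MK2206 in the pooled lines (6.53%), KO1 (5.01%) and KO2 (7.06%). For MK2206 in the pooled lines, DESeq2 called 5 (29.6% of all genes), all 18 libraries in 1 fit 6 (37.2%), the line as a covariate 6 (36.3%) and an adjusted p of at most 0.05 7 (47.3%). At that threshold 6 were called in KO1 (45.2%), upper-quartile normalization left 3 in KO2 (22.7%), and testing without a filter gave 1 (CDKN1A, 0.63, adjusted p = 1.33e-10, beside 0.149% of all genes) for the difference between the lines. Leaving out 1 library gave, with the share of all genes called in parentheses, 5 to 6 calls in KO against WT (21.8% to 31.8%), 6 to 8 in KO1 (32.6% to 43.1%), 5 to 7 in KO2 (34.3% to 44%), 2 to 3 between the lines (7.45% to 11.7%), 6 to 7 in myrAKT (22.4% to 28%), 2 to 3 for MK2206 in the pooled lines (17.5% to 19.9%), 3 to 4 in KO1 (11.2% to 23.2%), 2 to 6 in KO2 (13.8% to 25.4%), 0 to 1 for the difference between the lines (0.00642% to 0.0321%), 4 for myrAKT against KO (24.5% to 35.8%) and 6 for treated cells against WT (20.1% to 31.8%). With fewer libraries in a fit, the test has less to work with by construction.

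With the replicate block, calls were 5 in KO against WT (CCND1 and CDKN1B lost, 23.9% of all genes called), 7 in KO1 (CCND3 lost, 38.4%), 6 in myrAKT (27.1%) and 2 for MK2206 in the pooled lines (16.9%, CDKN1B lost in both), and unchanged in number elsewhere (7 in KO2 beside 43.1%, 3 between the lines beside 17%, 3 and 6 for MK2206 in KO1 and KO2 beside 17.7% and 23.8%, 0 for the difference between the lines beside 0.00642%, 4 for myrAKT against KO beside 27.2% and 6 for treated cells against WT beside 23.0%). CDKN1B in KO against WT was also lost with size factors of DESeq2 (adjusted p = 0.00128), without a filter (0.0163), with at least 10 counts in every library (0.00127) and with all 18 libraries in 1 fit (0.00116), and its rise with MK2206 in the pooled lines with size factors of DESeq2 (0.00112), upper-quartile normalization (0.00136), no filter (0.00442) and at least 10 counts (0.00115). In myrAKT it was lost with upper quartiles (0.00305) and library totals (0.00281). In KO1 CCND3 was lost with upper quartiles (0.00323), library totals (0.00359) and all 18 libraries (0.00112), CCND1 in KO2 without a filter (0.00105), and CDKN1A between the lines with all 18 libraries (0.0675). Calls gained at the same threshold, beside those for MK2206 in the pooled lines, included CCND3 in KO against WT with DESeq2 (3.98e-05) and all 18 libraries (7.47e-05), CDK6 there with all 18 libraries (0.000636), CDKN1B in KO1 and KO2 with upper quartiles (0.000513 and 0.000783) and library totals (0.000364 and 0.000585), CCND1 in myrAKT with DESeq2 (0.000426) and between the lines with DESeq2 (0.00087) and no filter (0.000211), and CCND3 in myrAKT against KO with upper quartiles (0.000377) and library totals (0.000525). The cause was not tested.

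The changes of sign, in log2 units, were these. Between KO1 and KO2, CCNE1 was at 0.0148 and CDKN1B at 0.0343 without a filter, CDKN1B was at 0.0016 with all 18 libraries in 1 fit, and leaving out a library gave −0.103 to 0.0309 for CCNE1 and −0.0382 to 0.0144 for CDKN1B. With MK2206, leaving out a library gave −0.164 to 0.0272 for CCND2 in the pooled lines, −0.0802 to 0.0551 for CCND2 in KO2 and −0.0622 to 0.00865 for CDK6 in KO1. CDK6 in KO1 was at 0.0207 with library totals, and CCND2 in KO2 at −0.0414 with upper quartiles, −0.00303 with at least 10 counts and −0.0160 with all 18 libraries. For the difference in the effect of MK2206, CCNE2 was at −0.0139 with upper quartiles, −0.0192 with library totals and −0.0672 to 0.0842 without a library. CDKN1B was at 0.00348 and 0.00768 with upper quartiles and library totals in myrAKT against KO. In treated cells against WT it was at −0.00950 with upper quartiles, −0.0434 without a filter and −0.0168 to 0.0677 without a library. Depth limits CCND2 in myrAKT, with 80 to 104 counts per library, and CDKN2B, whose 0 counts allow up to 0.0774 to 0.125 CPM per library.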
